A study of Mus musculus with 2 samples.

Results

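Fibroblast growth factors (FGFs) are secreted signals that bind receptor tyrosine kinases at the cell surface, with heparan sulphate or a klotho protein as partner, and switch on the Ras-ERK cascade. Cells answer by making inhibitors of that cascade, among them the membrane protein encoded by Il17rd, also called Sef, so that the signal limits itself. Fgf10 is made by mesenchyme and acts on neighbouring epithelium in lung and limb development, whereas Fgf21 is an endocrine FGF known from liver and fat that needs beta-klotho to signal. The small dual-specificity phosphatases encoded by Dusp15 and Dusp22 are close relatives, and neither belongs to the classical MAP kinase phosphatases that respond to ERK. Dusp22 is known as a regulator of JNK signalling and, in T cells, of Lck.

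The data covered these 5 genes, of 5928 genes read on the array, with all 8 probe sets annotated to a single one of them, out of 11868 probe sets that were not manufacturer controls. The genes had been chosen for their difference between the 2 mesoangioblast clones that were measured, so the contrast between clones is given as a description, with no test. The name of the group holds for Fgf10, Fgf21 and Il17rd; the phosphatases joined it by family and are described as such. Clones D16 and D351 came from the same procedure, in which aortas of C57BL6 embryos at day 9.5 were explanted for 5 days and cells were then cloned on growth-arrested embryonic fibroblasts, in medium with 20% serum, before growth on gelatin. No agent or allele distinguishes the clones in the labels. Each is a single clone read by 1 array (the C array of the murine U74 set), so a difference between the arrays belongs to these 2 RNA samples and has no replicate check.

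Values are the deposited linear intensities in arbitrary units. An intensity at or below 6.4, the median of both arrays, was called dim and raised to that floor before log2 was taken, and a probe set above it in at least 1 clone was called measured. Ratios are D16 minus D351 on the log2 scale, so a positive one means a higher reading in D16, and a ratio with 1 dim value is a lower bound. A gene is represented by its brightest probe set. Directions are taken on the deposited values, in which the arrays share a common mean, with no further scaling. The 9 hybridization control probe sets, however, read a median of 0.67 log2 higher in D16 (range 0.60 to 0.83). Out of 6828 measured probe sets, 666 passed 2-fold towards D16 and 665 towards D351, together 19.5%. Scaled to those controls the split would be 233 in D16 against 1808 in D351, and the median ratio of the probe sets above the floor in both clones would be -0.59 in place of 0.013. Bacterial and yeast control probe sets reached 11.2, so readings below that value are within the range of background. In RNA from a whole culture, fewer cells expressing a gene and less RNA per cell cannot be told apart.

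The promoters of the ligands are shown because Fgf10 and Fgf21 differed in opposite directions and because that of Fgf21 holds letters matching an element of the stress response, whose genes are described further on. They come from RefSeq with build GRCm38.p6, which gave 4 of the 5 members, and show the 250 bases before the annotated start on the coding strand, at chr13:118714449-118714698 on the plus strand for Fgf10 and at chr7:45615491-45615740 on the minus strand for Fgf21. Capitals mark motif matches.
Fgf10: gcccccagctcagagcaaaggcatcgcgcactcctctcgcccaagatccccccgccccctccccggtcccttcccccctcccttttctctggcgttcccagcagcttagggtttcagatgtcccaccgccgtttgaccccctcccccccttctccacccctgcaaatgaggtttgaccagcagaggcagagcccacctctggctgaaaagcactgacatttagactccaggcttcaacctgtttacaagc
Fgf21: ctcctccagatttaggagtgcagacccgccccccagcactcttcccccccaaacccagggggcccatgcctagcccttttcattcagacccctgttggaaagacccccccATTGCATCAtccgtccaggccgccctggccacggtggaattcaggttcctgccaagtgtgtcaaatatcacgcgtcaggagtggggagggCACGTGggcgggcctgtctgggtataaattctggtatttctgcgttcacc
The motifs searched on both strands were TGATGCAAT (a composite element of CHOP and ATF4), CACGTG (an E-box, which reads the same on both strands), CCGGAAG (an ETS site) and AGGTGT (a T-box core site). The Fgf21 window held the composite element on its minus strand, printed as ATTGCATCA, at positions -140 to -132 from the start, and an E-box at -50 to -45, with no overlap between them. Of 32851 promoter windows of this length, 55 (0.167%) held the composite element and 1978 (6.02%) the E-box. The ETS site, held by 6.91% of the windows, and the T-box core site, held by 11.8%, were not in the windows of Fgf10, Fgf21, Il17rd or Dusp22. A match in these letters is a description and does not show that a factor binds.

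**Figure D1:**
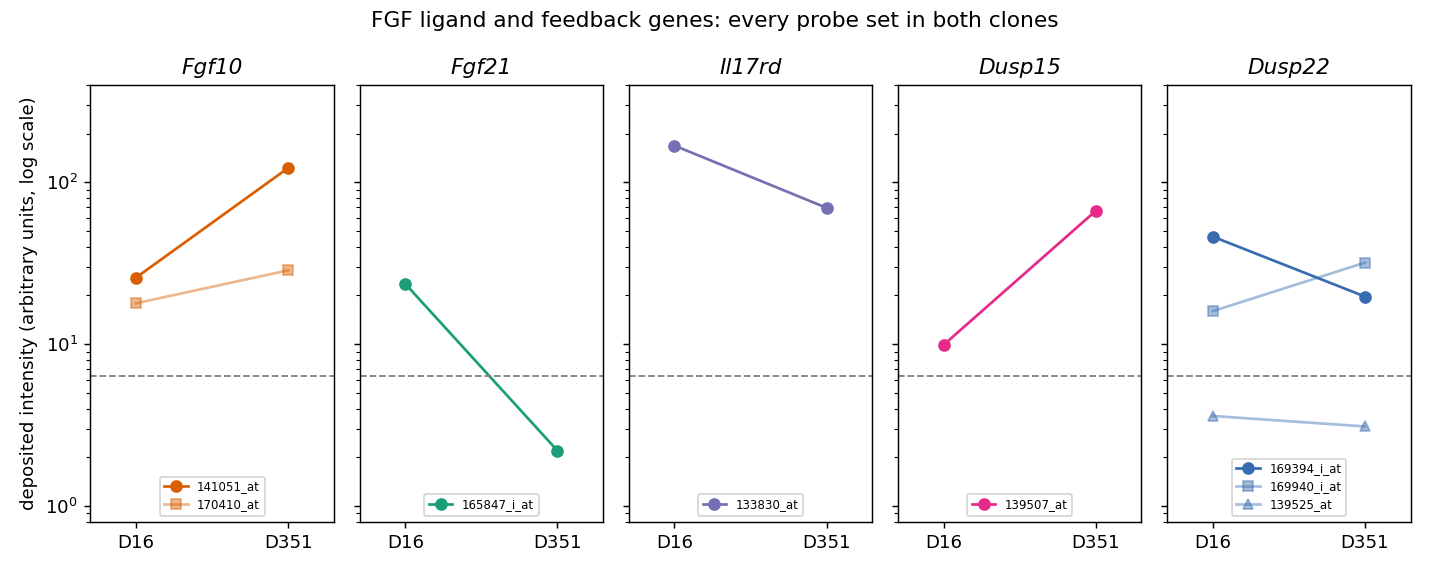
Deposited intensity (log axis, arbitrary units) of all 8 probe sets of the 5 genes, with D16 on the left and D351 on the right of each panel; each line is 1 probe set, the stronger line is the brightest of its gene, and the dashed line is the floor of 6.4. Lines slope up for both Fgf10 probe sets and Dusp15, slope down for Fgf21 and Il17rd, and cross for Dusp22.

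The ligands differed in opposite directions. Fgf10 was lower in D16, with an intensity of 25.8 in D16 against 122.8 in D351 by probe set 141051_at, a log2 ratio of -2.25 or 4.76-fold. Of the 6828 measured probe sets, 112 lay as far or further towards D351. The other Fgf10 probe set, 170410_at, read 17.9 in D16 and 28.6 in D351, a log2 ratio of -0.68. Both readings put Fgf10 lower in D16, and all 4 intensities were above the range of the negative controls, but the sizes were 1.57 log2 apart. Among 409 genes with a pair of probe sets above the floor in both clones, the difference within a pair had an SD of 0.95, and 37 genes were as far apart as Fgf10 or further. The mean of the Fgf10 readings was a log2 ratio of -1.46, or 2.76-fold.

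Fgf21 was read by 1 probe set, 165847_i_at, at 23.6 in D16 and 2.2 in D351. The D351 reading was dim and close to the median of the negative controls (1.9), so Fgf21 RNA was called above the floor in D16 only. The difference was at least 3.69-fold, a log2 bound of 1.88, and 126 measured probe sets lay as far or further towards D16. The reading rests on a dim spot: with a floor of 20.7, the 75th percentile of all values, the bound was 1.14-fold. The probe set carries a mark (i) in its identifier, which denotes a departure from the standard probe design. No unmarked probe set was annotated to Fgf21.

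Il17rd, the feedback inhibitor, was higher in D16. Probe set 133830_at, without a mark, read 168.7 in D16 and 69.6 in D351, 2.42-fold or a log2 ratio of 1.28. Both intensities lay far above the negative controls and the floor, so the ratio was the same with the floor at 1.8 or at 20.7. Of the measured probe sets, 395 lay as far or further towards D16. Scaled to the hybridization controls, the ratio was 0.60, or 1.52-fold, short of 2-fold.

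The phosphatase genes stood on opposite sides by their brightest probe sets. Dusp15 was lower in D16, with 9.9 in D16 and 66.6 in D351 by its only probe set, 139507_at, a log2 ratio of -2.75 or 6.73-fold. The D16 reading was no higher than the brightest negative control, and a floor of 20.7 left a difference of at least 3.22-fold. In all, 66 measured probe sets lay as far or further towards D351.

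Dusp22 gave no single direction. Its brightest probe set, 169394_i_at, had 46.2 in D16 against 19.7 in D351, which is 2.35-fold higher in D16 (log2 ratio 1.23). The next, 169940_i_at, read 16 in D16 and 31.9 in D351, 1.99-fold lower in D16 and just short of 2-fold, and the only one without a mark, 139525_at, was dim in both clones at 3.6 in D16 and 3.1 in D351. The first pair were 2.23 log2 apart, and 16 of the 409 genes differed as much or more within a pair. Their mean ratio was 0.12. Opposite signs within a pair were common on these arrays: they occurred in 160 of the 409 genes, and in 23 of the 73 whose brighter probe set was past 2-fold. The 2-fold call of Dusp22 towards D16 therefore depends on which probe set is taken.

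By their brightest probe sets, Fgf21, Il17rd and Dusp22 were past 2-fold towards D16, and Fgf10 and Dusp15 towards D351. Of the 7 measured member probe sets, 3 were past 2-fold towards D16, where the share over all measured probe sets was 9.75%, and 2 towards D351, where it was 9.74%. The members were picked from this same contrast, and nothing is read from these counts. By genes, the shares were 10.2% towards D16 and 10.3% towards D351.

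**Figure D2:**
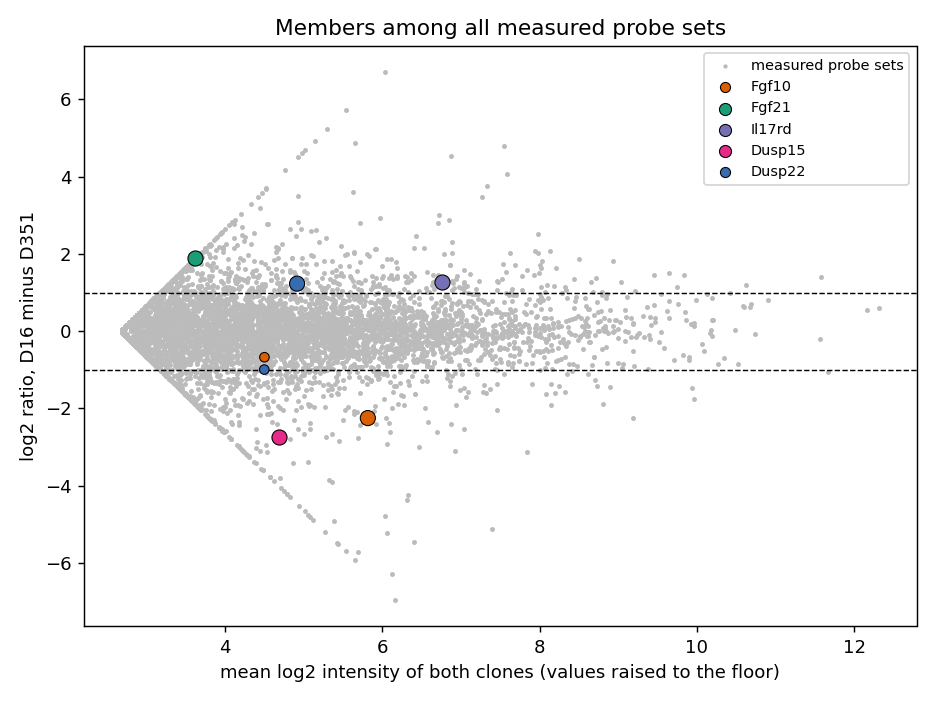
Log2 ratio, D16 minus D351, against mean log2 intensity for the 6828 measured probe sets (grey), with the 7 measured member probe sets in colour; large symbols are the brightest probe set of each gene and dashed lines mark 2-fold. Fgf21 lies on the edge formed by probe sets that are dim in 1 clone, while Il17rd and the brighter Fgf10 probe set lie further right, away from that edge.

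The remaining genes of FGF signalling were read from lists around the members, each gene by its brightest probe set. The array carried only part of each list. Over all 3934 measured genes the median log2 ratio was 0.022, and 20.5% were past 2-fold in either direction. Over the 12 pathway lists together it was 23 of 88 measured genes (26.1%), 8 towards D16 and 15 towards D351, with a median of -0.064. The 23 include the 5 members, 3 towards D16 and 2 towards D351. The members were chosen on this contrast, so nothing is read from the higher share. After scaling to the hybridization controls the pathway genes past 2-fold became 5 towards D16 and 32 towards D351. The medians of the 12 lists then moved by -0.67 to -0.19, and that of all measured genes to -0.59. Of the 6 lists with a median above 0, 5 fell below it. The exception, the list around Fgf21, came to 0.048, close to 0, with Fgf21 itself counted. The directions of the list medians given here therefore hold only relative to all genes. Of 22 FGF ligand genes, 6 were on the array and 4 were measured. Beside the members, Fgf8, a ligand of embryonic signalling centres, read 15.8 in D16 and 33.4 in D351 by a marked probe set, 2.11-fold lower in D16, and was not past 2-fold with the floor at 20.7. Fgf14, an intracellular FGF homologue, read 8.4 in D16 and 9.1 in D351.

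On the receptor side, 5 of 7 genes on the array were measured, 1 was past 2-fold towards D16 and 0 towards D351, with a median of 0.13. Several were picked out after their values were seen, because they are the partners of the ligands. Fgfr1, a receptor for many FGFs, read 94.5 in D16 and 90.1 in D351, and 40.6 in D16 and 47.5 in D351 by its other probe set. Fgfr2, whose IIIb form is the receptor of Fgf10, read 8.4 in D16, against a dim value of 2 in D351. Klb, the beta-klotho that Fgf21 needs, was dim in both, at 0.9 in D16 and 0.4 in D351. Flrt2, a membrane protein of a family that binds FGF receptors, was at least 4.05-fold higher in D16 (25.9 against 5.6), a bound that came down to 1.25-fold when the floor was 20.7. Its relative Flrt3 was within 2-fold by its brightest probe set, at 285.1 in D16 and 350.5 in D351. The other Flrt3 probe sets lay past 2-fold towards D16, at 114.3 against 35.4 and 91.6 against 38 in D351. All Flrt3 probe sets carry a mark, so its place in the count depends on the probe set taken. Fgfr1 therefore read above the range of the negative controls in both clones, and Fgfr2 and Klb did not in either.

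Heparan sulphate genes, which build the co-receptor chains of paracrine FGFs such as Fgf10, had 3 of 8 measured genes past 2-fold towards D351 and 0 towards D16, with a median of -0.10. Ext1, a polymerase of these chains, read 185.4 in D16 and 555 in D351 by a marked probe set, 2.99-fold lower in D16. Its other probe set, without a mark, lay the same way at 18.3 in D16 and 48.8 in D351. The carrier glypican Gpc2 was dim in D16 at 1.9 and read 54.2 in D351, at least 8.47-fold lower in D16 by a marked probe set, or at least 2.62-fold when the floor was 20.7. The sulphotransferase gene Ndst3 was dim in D16 at 3.8 and near background at 13.6 in D351, and was dim in both with that floor.

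Downstream, the adaptors and the Ras-ERK cascade had 0 of 11 measured genes past 2-fold towards D16 and 1 towards D351, with a median of -0.14. That gene was the scaffold Cnksr1, dim in D16 at 3.3 and at 14.0 in D351, and dim in both when the floor was 20.7. Of the feedback inhibitors, Il17rd was the only one of 7 measured past 2-fold. The other 6 had a median of 0.11. Picked out after their values were seen, the Sprouty gene Spry4 read 21.7 in D16 and 14.5 in D351, and its relatives Spred2 and Spred3 read 28.9 and 73.7 in D16 against 25.6 and 69.2 in D351. No measured Sprouty or Spred gene was past 2-fold beside Il17rd. Among 7 measured ERK-responsive genes, 2 were past 2-fold towards D16 and 0 towards D351. They were Il17rd itself and cyclin D1 (Ccnd1), which read 312.6 in D16 and 42.7 in D351.

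**Figure D3:**
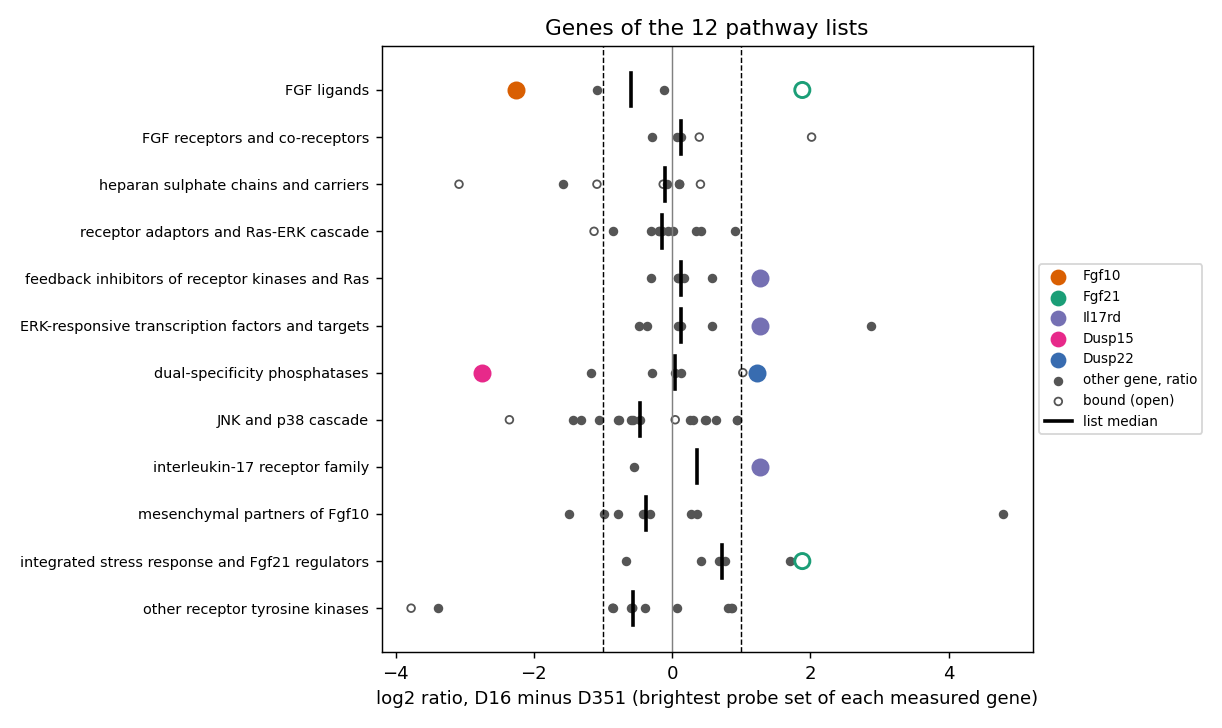
Log2 ratio, D16 minus D351, of each measured gene in the 12 pathway lists (1 row per list); filled symbols are ratios between measured values, open symbols are lower bounds, coloured symbols are the members, black bars are list medians and dashed lines mark 2-fold. Il17rd stands to the right of the other feedback inhibitors, and the ligands Fgf10 and Fgf21 lie at opposite ends of their row.

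The dual-specificity phosphatases had 7 measured genes of 13 on the array, 2 past 2-fold in each direction, with a median of 0.039. Besides the members, Dusp23, a small atypical phosphatase, read 47.2 in D16 and 106.5 in D351 by a marked probe set, 2.26-fold lower in D16. Ssh1 was within 2-fold by its brightest probe set (97 in D16, 118.9 in D351), but a marked one lay past 2-fold towards D16 (69.8 in D16, 12.7 in D351). Dusp3, which acts on ERK and JNK, was near background at 13.0 in D16 and dim at 3.9 in D351, and was dim in both with the higher floor. In the JNK and p38 cascade, with which Dusp22 is linked, 0 of 17 measured genes were past 2-fold towards D16 and 4 towards D351. The signs were nearly even, with 8 of the 17 ratios above 0 and 9 below. The median of -0.47 was the ratio of a single gene, Tnik (9.4 in D16, 13 in D351). Its D16 reading was lower than the brightest negative control, so no shift of the cascade is read from this median. Map4k5 (257.6 in D16, 695 in D351, by a marked probe set) and Map3k14 (43.5 in D16, 108.1 in D351) were 2.70-fold and 2.49-fold lower in D16. Map3k14 is the NF-kappaB-inducing kinase and was counted here only by its place on the list. The scaffold Spag9 read 9.6 in D16 and 19.9 in D351, both under the higher floor. Mapk12, a p38 kinase, was dim in D16 at 1.3 and read 32.7 in D351 by a marked probe set, for which the higher floor left a bound of 1.58-fold. Its other probe set, without a mark, lay the opposite way at 7.2 in D16 and 4.4 in D351. Il17rd belongs to the interleukin-17 receptor family by structure. On the list of that family with its ligands and adaptors, no other receptor was read here, and only the cytoplasmic adaptor Traf6 was measured besides it, at 9.8 in D16 and 14.4 in D351.

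Of 8 measured genes on the list of mesenchymal partners of Fgf10, 1 was past 2-fold in each direction, with a median of -0.37. The T-box factor Tbx5, which acts upstream of Fgf10 in the limb, lay on the same side as Fgf10, at 10.1 in D16 and 28.3 in D351, 2.80-fold lower in D16, though not past 2-fold with the floor at 20.7. The gene past 2-fold towards D16 was Tfap2a, which read 981.2 in D16 and 35.6 in D351. It is a factor of neural crest and surface ectoderm and was counted here only by its place on the list. Around Fgf21, the integrated stress response and metabolic regulators had 5 measured genes beside it, 1 past 2-fold towards D16 and 0 towards D351, with a median of 0.68. Ppargc1b, a transcriptional coactivator of mitochondrial metabolism, had 371.1 in D16 against 113.8 in D351, a 3.26-fold difference towards D16. Asns, a well-known target of ATF4, read 33.7 in D16 and 25.3 in D351, and Sesn2, another of its targets, 43.1 in D16 and 68.3 in D351 (both picked out after their values were seen). Of 11 measured receptor tyrosine kinases outside the FGF family, 0 were past 2-fold towards D16 and 2 towards D351, with a median of -0.57. These were the Wnt5a receptor Ror2 (10.3 in D16, 107.7 in D351, by a marked probe set) and the VEGF receptor Flt1 (dim at 1.3 in D16, 87.6 in D351). They were at least 5.20-fold and 4.23-fold lower in D16 with the floor at 20.7. By sign, 4 of the 11 kinases lay above 0 and 7 below. Their median was the ratio of Kdr (1.6 in D16, 9.5 in D351), whose readings were within the range of the negative controls.

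All measured fibroblast markers, and some of the smooth muscle markers, lay on the same side as the lower Fgf10 and Dusp15 readings in D16. Of 5 embryonic fibroblast markers on the array, the cell type of the feeder layer, 4 were measured and 3 were past 2-fold towards D351, with summed intensities of 755.6 in D16 and 2425.6 in D351. The largest ratios were those of the microfibril gene Mfap5 (41.9 in D16, 257.2 in D351) and the collagen gene Col5a1 (543.2 in D16, 1838.3 in D351), while Col5a2 was dim in both. Col5a1, which gave most of both sums, was read by a marked probe set. Its unmarked probe set was dim in both clones (1.1 in D16, 2.1 in D351), as was the other Mfap5 probe set (2.4 in D16, 2 in D351). Of 8 smooth muscle markers, 7 were measured and 4 were past 2-fold towards D351, while the other 3, Itga1 (124.9 in D16, 87.6 in D351), Csrp1 (35.5 in D16, 28.3 in D351) and Tpm1 (13.4 in D16, 10.2 in D351), read higher in D16. The sums were 285.3 in D16 and 1217.3 in D351, mostly from Lmod1 and Itga8 in D351. The largest ratios were Lmod1 (dim at 2.6 in D16, 288.2 in D351) and Itga8 (77.6 in D16, 678.3 in D351), while smooth muscle actin, Acta2, was dim at 4.7 in D16 and read 15.4 in D351 and the regulator Myocd was dim in both. All 3 mural cell markers were past 2-fold. Bgn (2238.3 in D16, 4679.7 in D351) and Rgs4 (6.8 in D16, 13.8 in D351) were lower in D16, and Angpt1 (26.2 in D16, dim at 4.5 in D351) was higher. The sums, 2271.3 in D16 and 4698 in D351, came almost wholly from Bgn, which was read by a marked probe set. Of 5 endothelial markers 3 were measured, with Flt1 lower in D16 and Egfl7 (19.5 in D16, dim at 3.8 in D351) higher, and sums of 26.3 in D16 and 102.7 in D351. None of the 2 haematopoietic markers was past 2-fold, with sums of 45.6 in D16 and 51.3 in D351. With a floor of 20.7, Acta2, Rgs4 and Egfl7 were dim in both clones, the Angpt1 bound was 1.27-fold and the Lmod1 bound 13.9-fold. The part of any such cells in the member values was not tested. Of genes that mark vascular and blood progenitors, Kdr was dim at 1.6 in D16 and read 9.5 in D351, within the range of the negative controls. Cd34, Kit and Ly6a were among the 18 haematopoietic markers looked for, but no probe set here was annotated to any of them alone. The labelled cell type could therefore not be checked further.

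The genes whose pair of readings lay nearest to each member, by distance between the log2 values on the 2 arrays, were as follows. Fgf10 was nearest to Plxdc2, at a distance of 0.048 log2 units, and to 4930520O04Rik. Fgf21 was nearest to C920009B18Rik and Strap, which, like it, were dim in D351. Il17rd was nearest to Rad54b (0.065 log2 units) and Atmin, Dusp15 to Col6a4 (0.070) and Meg3, and Dusp22 to Otub2 (0.058) and Rif1. With 2 arrays this likeness says only that the readings were close.

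**Figure D4:**
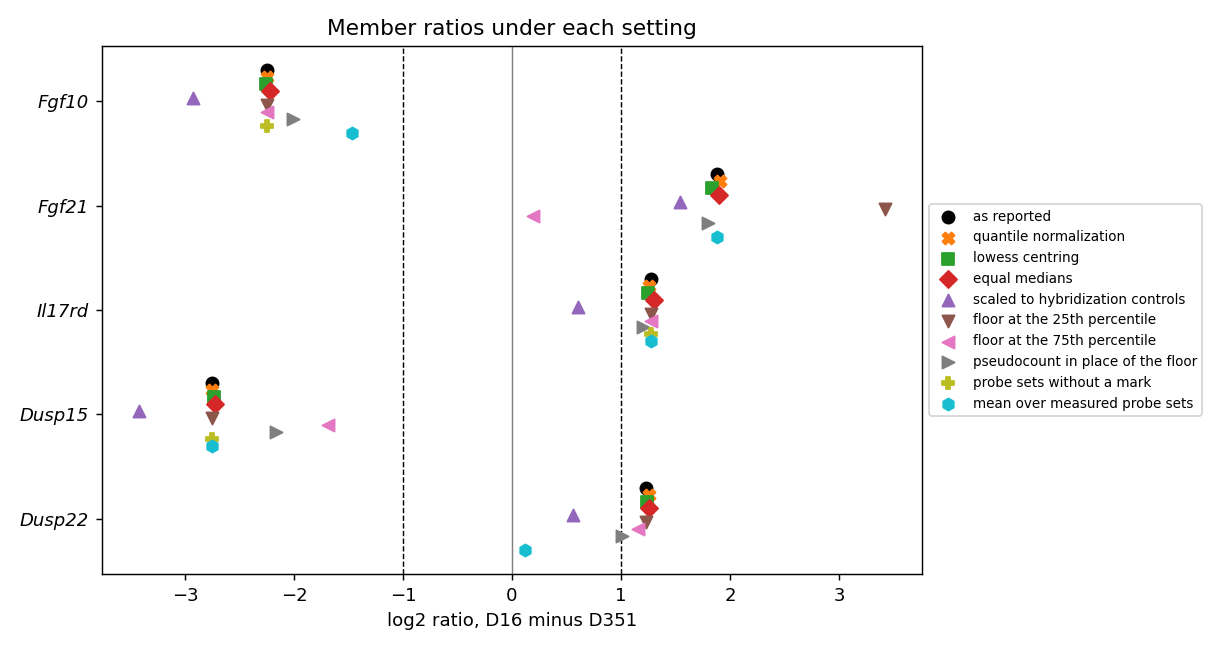
Log2 ratio, D16 minus D351, of each member (1 row per gene) under the reported setting and 9 alternatives, 1 symbol each; dashed lines mark 2-fold. By its brightest probe set, or the mean over probe sets, each gene keeps its side of 0, and Fgf21, Il17rd and Dusp22 come inside the dashed lines under at least 1 setting.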

How the data were processed

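Total RNA of each clone was measured on 1 array. The deposited table holds 1 linear intensity per probe set, which the authors had made from groups of probes; neither the software nor the scaling is given in the sources used here. The mean without the lowest and highest 2% of probe sets came to 20.01 for each clone, so the arrays share a common mean. No value was below 0, and 4 in D351 were exactly 0. The 66 control probe sets were set aside. Of 11868 others, 7717 had a single gene in the platform annotation, 150 had several and 4001 were unnamed here. Genes (5928, of which 3934 were measured) were represented by the probe set with the highest mean floored log2 value.

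The members and gene lists were chosen with earlier results of these data known. There is no test, because each clone has 1 array, and precision is limited by that number of arrays. The rule for named genes took all members, up to 4 genes past 2-fold in each direction from each of the 12 pathway lists, up to 2 from each of the 5 cell type lists, and the 2 genes nearest to each member. Genes named outside this rule were picked after their values were seen. Alternatives were quantile normalization, lowess centring (span 0.3), equal medians, scaling to the hybridization controls, other floors, a pseudocount, unmarked probe sets, the mean over probe sets, and 3-fold for counts. A mark is an extra letter in a probe set identifier. It denotes a departure from the standard probe design, such as relaxed probe selection or shared sequence. The brightest probe sets of Fgfr1, Flrt2, Klb, Dusp3, Sesn2 and Itga1 also carry a mark, as do those of several genes nearest to the members. The ratio calls were tried on simulated data with changes planted in bright probe sets only. That trial says nothing about recovery of differences near the floor. Figures were drawn with matplotlib 3.10.9, lowess came from statsmodels 0.14.6, and the rest used scipy 1.17.1, pandas 2.3.3 and numpy 2.4.6 in Python 3.11.15.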

Additional observations from a re-analysis of the deposited data

How the results depend on the processing

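By its brightest probe set or the mean over its probe sets, each member kept its direction under every alternative that gave a value, and Fgf10 and Dusp15 stayed past 2-fold. The other measured Dusp22 probe set lay the opposite way, towards D351, under all scalings and floors tried. With the floor at 20.7 the Fgf21 log2 ratio was 0.19, because its D16 reading lies just above that floor. Scaled to the hybridization controls, Il17rd came to 0.60 and Dusp22 to 0.56, as the scaling takes 0.67 from a ratio between measured values. The mean over its measured probe sets gave 0.12 for Dusp22. Fgf21 and Dusp22 have no value from unmarked probe sets, as Fgf21 has none and that of Dusp22 was dim. The 1331 probe sets past 2-fold became 2041 when scaled to the hybridization controls, 3189 with the floor at 1.8, 521 with the floor at 20.7, 838 over unmarked probe sets and 496 at 3-fold. The 23 pathway genes became 37 when scaled to the hybridization controls, 14 with the floor at 20.7, 13 over unmarked probe sets and 11 at 3-fold. No paired analysis was possible because each clone has 1 array, and no replicate could be left out. Readings near the negative control maximum of 11.2 depend on the floor.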
